A study of Mus musculus with 4 samples.

Results

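DNA replication genes were compared between proliferating iMOP cells and iMOP-derived neurons. The iMOP line consists of immortalized mouse otic progenitors, which can give rise to inner ear neurons and sensory cells. The set holds 43 genes, chosen by name from the row symbols of the count tables: origin licensing genes, the MCM and GINS helicase genes, DNA polymerases, the sliding clamp and its loader, single-strand binding and flap processing genes, nucleotide supply genes and E2f1. All 43 were found among the 49997 gene rows, and all 43 were among the 12783 genes that passed the filter on low counts. Every one of them had at least 1 count in every library, from 4 counts (Gmnn in proliferating 2) to 699 (Mcm6 in proliferating 1).

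Total RNA from 4 cultures of wild-type genotype, 2 per group, was depleted of ribosomal RNA (500 ng input) and sequenced. The titles call all libraries stranded. The proliferating cells were grown in DMEM/F12 with B27, carbenicillin and 20 ng/ml bFGF, a growth factor. The neurons were kept in Neurobasal with N21, L-glutamine and 1 µM K03861, which inhibits CDK2, a kinase that acts at S phase entry. How long the neuron cultures were kept and their share of cells still in cycle are not given in the sources used here. All cultures come from the same line, and the neurons differ from the proliferating cells in medium, growth factor and inhibitor at once, so these cannot be told apart. The labels call the replicates biological, and the titles of both replicate 2 libraries carry a set number, so libraries of the same number were also read as pairs. Proliferating 1 and neurons 1 are called pair 1, and proliferating 2 and neurons 2 pair 2.

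Replication is licensed before S phase, when the origin recognition complex, Cdc6 and Cdt1 load the MCM2-7 ring onto DNA. The ring becomes an active helicase once Cdc45 and the GINS complex join it, and primase with polymerase alpha, polymerases delta and epsilon, the clamp PCNA and its loader RFC then copy the strands. E2F transcription factors, held back by the retinoblastoma protein and released by cyclin-dependent kinases, switch on most of these genes as cells enter S phase, and cells that leave the cycle to become neurons typically shut them down.

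The sequence in front of these genes was examined first, because E2F binding sites are the feature they are best known to share. RefSeq start sites of GRCm38.p6 were given for 35 of the 43 genes, each with 250 bases before and 50 bases after the start. Some genes had more than 1 start, which gave 41 windows, and a word in any window of a gene was counted. The words searched were TTTCCCGC, TTTGGCGC, TTTCGCGC and TTTGCCGC, on both strands, and they can overlap each other. At least 1 word was found for 14 of the 35 genes (40.0%), against 704 of 27025 genes of the whole table (2.60%) and 3.29% of its protein-coding genes. The CCAAT word, bound by the factor NF-Y, was found for 22 of the 35 (62.9%) and for 41.1% of all genes. A match is a description of the letters and not a measured binding site. The stretches of 60 bases shown here cover 1 gene each for origin recognition, licensing, helicase activation and primer synthesis, and the helicase genes Mcm5 and Mcm6, whose windows hold overlapping words (those of Mcm6 lie outside its stretch). They run 5′ to 3′ on the gene's strand, with E2F words in capitals.
Orc1: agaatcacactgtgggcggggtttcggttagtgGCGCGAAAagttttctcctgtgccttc
Cdc6: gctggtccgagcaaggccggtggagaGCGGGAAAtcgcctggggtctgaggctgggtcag
Mcm5: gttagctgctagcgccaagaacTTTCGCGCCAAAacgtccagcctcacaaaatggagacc
Mcm6: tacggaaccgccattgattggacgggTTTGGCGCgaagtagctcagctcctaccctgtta
Gins3: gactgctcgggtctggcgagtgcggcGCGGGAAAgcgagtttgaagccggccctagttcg
Pola1: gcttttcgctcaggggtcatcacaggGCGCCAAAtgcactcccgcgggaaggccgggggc
The Orc1 stretch lies at chr4:108579394-108579453 on the plus strand, from base -60 to -1 before the start. That of Cdc6 is at chr11:98907987-98908046 on the plus strand (-164 to -105), and that of Mcm5 at chr8:75109334-75109393 on the plus strand (-175 to -116). The Mcm6 stretch is at chr1:128359719-128359778 on the minus strand (-73 to -14). Gins3 has its stretch at chr8:95633492-95633551 on the plus strand (-67 to -8), and Pola1 at chrX:93632260-93632319 on the minus strand (-164 to -105). The stretches of Orc1, Cdc6 and Pola1 precede a start that lies within the gene, so they fall inside its full span. These spans are chr4:108575705-108616030, chr11:98907709-98923942 and chrX:93304766-93632387. In Mcm5, TTTCGCGC and the reverse of TTTGGCGC share 4 bases, so 1 stretch counts as 2 words.

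**Figure D1:**
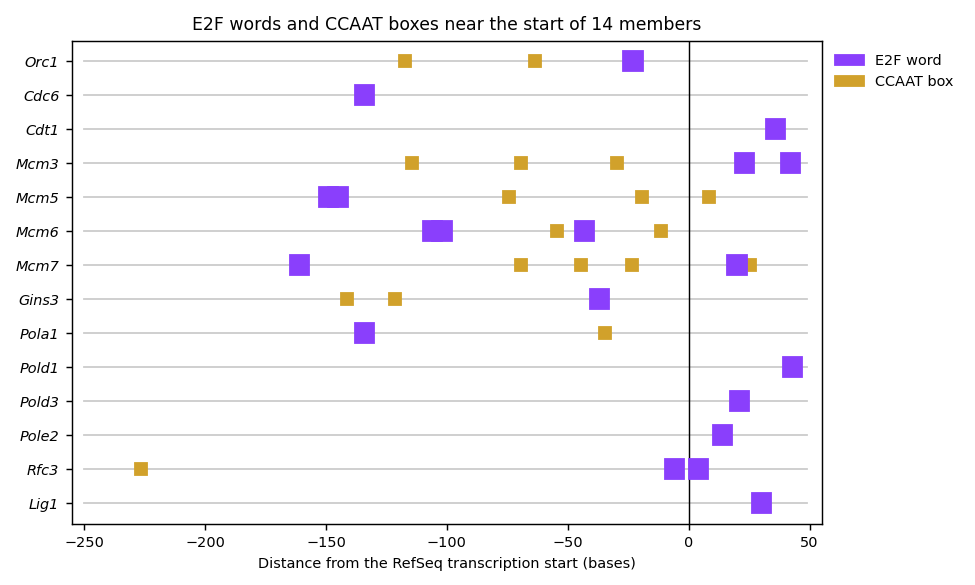
Positions of E2F words (large squares) and CCAAT words (small squares) in the 14 replication genes with an E2F word, as distance in bases from the RefSeq transcription start (line at 0). Words lie on both sides of the start. The E2F words of Mcm5, Cdc6 and Pola1 lie more than 100 bases in front of it, while those of Cdt1, Mcm3, Pold1, Pold3, Pole2 and Lig1 lie after it.

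The libraries differed in ways that do not follow the groups. Total counts ranged from 7446361 to 14484011, but a single 18S ribosomal RNA row held 53.3% and 59.4% of them in the replicate 1 libraries and 74.99% and 76.1% in the replicate 2 libraries, which left 2595578 (proliferating 2) to 3850766 (neurons 1) counts for other rows. Levels are given as CPM, counts scaled to a common library size by the TMM method, which sets most genes equal between libraries. The replicates of both groups differed along the GC content of the transcript: Spearman's rho with the log2 ratio of replicate 2 to replicate 1 was 0.54 in proliferating cells (11476 genes) and 0.33 in neurons (11563 genes). Because proliferating 2 was the lowest library for most replication genes, results are also given without it. Of 12 neuron markers, 10 were tested and 0 passed the edgeR test. They summed to 161.9 and 349.5 CPM in proliferating 1 and 2 and to 202.3 and 365.2 CPM in neurons 1 and 2, and Tubb3, at 19.1 and 193.6 CPM in proliferating cells, took much of that spread. Neurons were higher without overlap, as for 12.9% of all tested genes, in 2 of them, Elavl4 (7.56 and 12.2 against 17.7 and 38.0 CPM, unadjusted p = 0.0312) and Map2 (93.9 and 92.3 against 121.5 and 140.6 CPM). In pair 1, 4 of the 10 neuron markers were higher in neurons and 6 lower, where 50% of all genes were higher. In pair 2, 7 were higher and 3 lower, where 53.3% of all genes were higher. Stmn2 was lower in neurons in both pairs (0.329 and 8.12 against 0.252 and 3.57 CPM). Tubb3 had 28.8 and 104.6 CPM in neurons. Of the 8 progenitor markers, 3 were tested and 0 passed the edgeR test. All 8 summed to 66.1 and 84.2 CPM in proliferating cells and 70.0 and 43.3 CPM in neurons. Sox2 had 29.7 and 48.1 against 33.8 and 22.0 CPM. Jag1 was lower in neurons without overlap (28.6 and 31.4 against 26.7 and 14.8 CPM), and Eya1 was higher without overlap (5.09 and 3.65 against 8.66 and 5.81 CPM). Dlx5, which was not tested, was also lower without overlap (1.89 and 0.812 against 0.0841 and 0.408 CPM). Pax2 and Pax8 had 0 counts in every library.

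No replication gene passed the test in either direction. In edgeR's quasi-likelihood test of neurons against proliferating cells, 0 of the 43 were called at an adjusted p-value under 0.05, where 0.0% of all tested genes were called. None of them (0 of 43) had an unadjusted p-value under 0.05, against 3.43% of all genes, and the lowest belonged to Rpa3 (0.0922). With the replicate number as a block the counts were again 0 and 0 of 43, against 0.0235% and 6.18% of all genes. Neuron cultures held transcripts of the whole replication machinery: the 43 genes summed to 579.0 and 381.6 CPM in proliferating 1 and 2 and to 615.3 and 565.8 CPM in neurons 1 and 2. The median log2 fold change was 0.35, with 34 of the 43 (79.1%) above 0, against a median of 0.02 and 52.0% above 0 over all tested genes. With library size alone, which moved the median of all genes to -0.27, the median of the 43 was -0.04 with 16 above 0. Without proliferating 2 it was smaller but still above 0, 0.091 with 25 above 0, against 0.011 for all genes. The median of the 43 lay above that of all genes by 0.33 in the first fit, by 0.23 with library size alone and by 0.080 without proliferating 2. In bulk RNA, fewer cells that express a gene and less of its RNA per cell cannot be told apart.

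**Figure D2:**
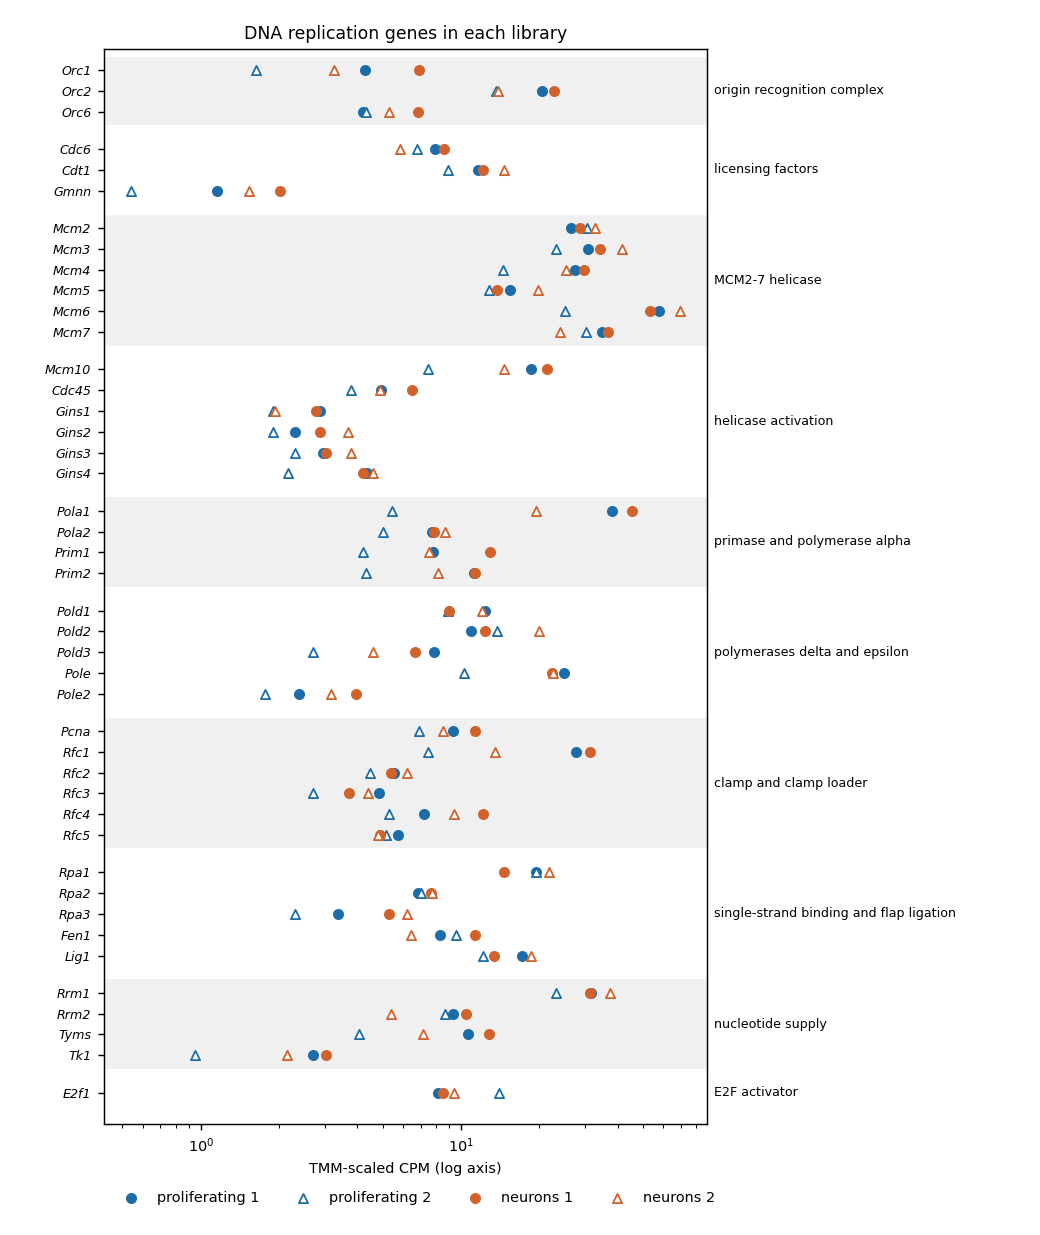
TMM-scaled CPM on a log axis of the 43 DNA replication genes in each library, in 10 roles; filled circles are pair 1, open triangles pair 2, blue proliferating cells and orange neurons. The pair 1 symbols of both groups lie close together, and proliferating 2 is the lowest of the 4 libraries for 32 of the 43 genes.

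Read as pairs, the replicates gave different pictures. In pair 1 the levels were close: the median ratio of neurons to proliferating cells was 1.09 (log2 0.12), with 30 genes higher and 13 lower where 50% of all genes were higher. Of the 43, 7 were at least 1.5-fold higher in neurons (16.3%, against 15.4% of all genes) and 0 at least 1.5-fold lower (against 18.1%). In pair 2 the median ratio was 1.63 (log2 0.71, against 0.08 for all genes), with 37 higher and 6 lower, where 53.3% of all genes were higher. There, 26 of the 43 were at least 1.5-fold higher (60.5%, against 32.9%) and 1 at least 1.5-fold lower (Rrm2, against 23.2%). With library size alone, which shifts all genes of a pair alike, the median of pair 1 was -0.26 with 9 higher and 34 lower, against -0.38 for all genes, and that of pair 2 was 0.63 against 0.00. The 43 lay 0.12 above all genes in pair 1 and 0.63 above them in pair 2 under both scalings. Each pair sets 1 library against 1, so no test of the conditions was made within a pair.

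Counting intervals show how far these ratios could be resolved. The 95% exact interval of a ratio covers counting error only and leaves out variation between cultures. No molecular identifiers are described for these reads, so copies of 1 molecule could be counted more than once. In pair 1 it lay above 1 for 8 genes (20.2% of all genes), below 1 for 3 genes (20.4%) and held 1 for 32. The 3 below 1 were Pold1, Rpa1 and Lig1, and all of these had a ratio above 1 in pair 2. In pair 2 the interval lay above 1 for 21 (27.9%) and below 1 for 4 (24.2%). The 4 were Mcm7, Fen1, Rrm2 and E2f1, none of which was below 1 in pair 1.

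**Figure D3:**
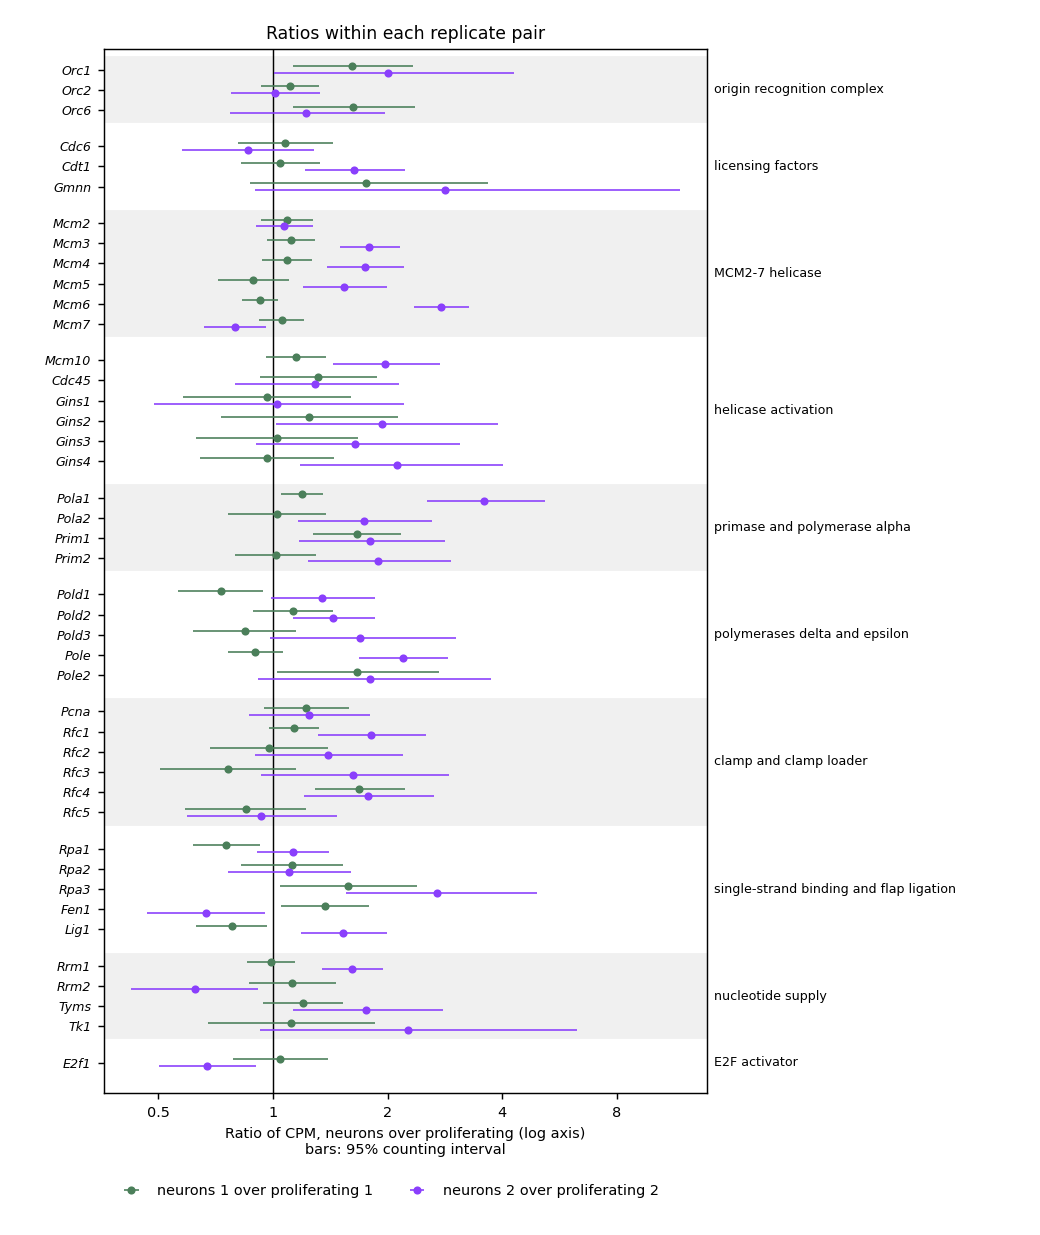
Ratio of CPM in neurons to CPM in proliferating cells on a log axis for each replication gene, in pair 1 (green) and pair 2 (purple), with 95% exact counting intervals as bars and a line at 1. In pair 1 32 of 43 intervals hold 1, while in pair 2 21 lie above 1 and 4 below.

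The difference between the pairs came with a difference between the proliferating replicates, and pair 2 and this comparison share proliferating 2. Compared with proliferating 1, proliferating 2 was lower for 37 of the 43 genes and higher for 6, with a median ratio 1.37-fold lower (log2 -0.45, against -0.04 for all genes, of which 48.9% were higher). It was at least 1.5-fold lower for 18 (41.9%, against 34.6%) and at least 1.5-fold higher for 1, E2f1 (against 27.1%). Of the 4 libraries, proliferating 2 was the lowest for 32 of the 43 genes (74.4%), against 37.8% of all genes. The counting interval of that ratio lay above 1 for 1 gene (29.0% of all genes), below 1 for 20 (30.8%) and held 1 for 22. Between the neuron libraries the median differed less, but as many counting intervals left out 1: neurons 2 was higher than neurons 1 for 20 genes (50.1% of all genes) and lower for 23, at least 1.5-fold higher for 1 (20.4%), Pold2, and at least 1.5-fold lower for 9 (22.3%), with a median of -0.24 on the log2 scale against 0.00 for all genes. The interval lay above 1 for 8 (23.2%), below 1 for 13 (23.0%) and held 1 for 22.

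**Figure D4:**
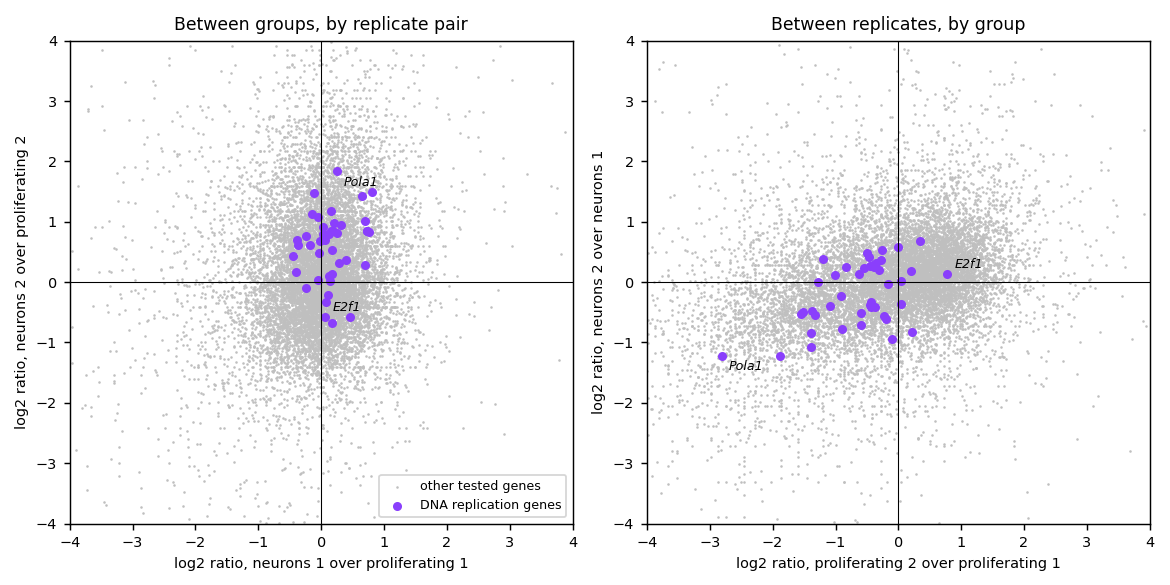
Log2 ratios of CPM for the 43 replication genes (purple) and the other tested genes (grey), on the left between groups (pair 1 on the x axis, pair 2 on the y axis) and on the right between replicates (proliferating on the x axis, neurons on the y axis); 352 and 371 genes beyond 4 in either direction or with no ratio are not drawn. The replication genes spread along the y axis on the left, with 37 above 0, and to the left of 0 on the right, with 37 below 0.

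Groups do not overlap where both neuron values lie above, or both below, both proliferating values. Neurons were higher without overlap for 11 of the 43 genes (25.6%, against 12.9% of all genes): Orc6, Cdt1, Gmnn, Mcm3, Gins2, Gins3, Pola2, Pole2, Rfc4, Rpa2 and Rpa3. They were lower without overlap for 1, the clamp loader gene Rfc5 (2.33%, against 14.5%). With library size alone both counts were 0, against 1.74% of all genes higher and 18.4% lower, and so they were in the deposited RPKM, which divides by the same library totals (1.75% and 18.4%). Ratios above 1 in both pairs were found for 25 genes (58.1%, against 28.8%), and below 1 in both pairs for 1, again Rfc5 (2.33%, against 25.5%). The ratio of Rfc5 was 0.848 (0.588 to 1.22) in pair 1 and 0.931 (0.594 to 1.47) in pair 2, and both counting intervals hold 1. Gins3 and Pola2 had equal raw counts in the libraries of pair 1 (36 and 36, 94 and 94). Their lack of overlap thus rests on the scaling. With 2 libraries a group, an exact two-sided permutation test of 1 gene cannot give a p-value under 0.333, so none was made. In what follows, the edgeR adjusted p-value of every one of the 43 genes was 0.9998. Medians by role moved with single libraries, except that of single-strand binding and flap ligation, which stayed between 0.10 and 0.14 with each library left out. Without proliferating 2 they were 0.25 for origin recognition, 0.20 for licensing, 0.10 for MCM2-7 and 0.11 for helicase activation. Those of primase and polymerase alpha (-0.05), polymerases delta and epsilon (-0.15), the clamp and its loader (-0.09) and nucleotide supply (-0.08) were then below 0. Without neurons 1, origin recognition fell to 0.09, primase and polymerase alpha to 0.16, the clamp and its loader to 0.10 and nucleotide supply to 0.03. Without proliferating 1 the medians were larger for primase and polymerase alpha (1.21), polymerases delta and epsilon (0.99), nucleotide supply (0.91), helicase activation (0.66), the clamp and its loader (0.53) and MCM2-7 (0.51). Without neurons 2, primase and polymerase alpha had 0.80 and licensing 0.24.

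Origin recognition genes were at similar or higher levels in neurons within each pair. Their 3 members had a median log2 fold change of 0.51, and of 0.29 with library size alone. Orc1, the subunit whose level varies through the cell cycle (chr4:108575705-108616030), had 4.27 and 1.62 CPM in proliferating 1 and 2 and 6.90 and 3.26 CPM in neurons 1 and 2. Both replicate 2 libraries were below both replicate 1 libraries, so the groups overlapped, while neurons were higher inside each pair: the ratio was 1.61 (1.13 to 2.33) and 2.01 (1.01 to 4.28), the latter from 12 and 32 counts. Its log2 fold change was 0.76 with SE 0.67. Orc6 had 4.19 and 4.33 CPM in proliferating cells and 6.81 and 5.30 CPM in neurons, without overlap (log2 0.51, SE 0.49). Orc2 showed the replicate and not the group, with 20.5 and 13.7 CPM in proliferating cells and 22.7 and 13.9 CPM in neurons (log2 0.09, SE 0.50).

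Among the 3 licensing factors, neuron values lay above proliferating values without overlap for Cdt1 and Gmnn but not for Cdc6, and the median log2 fold change was 0.37, or -0.01 with library size alone. Cdt1, which brings the MCM ring to the origin (chr8:122568015-122573130), had 11.7 and 8.93 CPM in proliferating cells and 12.2 and 14.6 CPM in neurons. The groups did not overlap, but the ratio was 1.05 in pair 1 (0.824 to 1.33) and 1.63 in pair 2 (1.21 to 2.22). Gmnn encodes geminin, which blocks Cdt1 after S phase begins, and had a log2 fold change of 1.02 with SE 0.79. It rests on 14 and 4 counts in proliferating cells and 24 and 15 counts in neurons, and both counting intervals hold 1. Cdc6, the loading ATPase, had 7.97 and 6.77 CPM in proliferating cells and 8.58 and 5.81 CPM in neurons, so the neuron values lay on both sides of the proliferating ones (log2 -0.03, SE 0.49).

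The 6 MCM2-7 genes carried the most counts, and their summed level was close in 3 libraries. Together they had 192.1 and 136.4 CPM in proliferating 1 and 2, and 196.2 and 212.8 CPM in neurons 1 and 2. Their median log2 fold change was 0.32, and -0.09 with library size alone. In pair 1 all 6 ratios lay between 0.888 (Mcm5) and 1.11 (Mcm3), and every interval held 1. In pair 2 the same subunits, which work as 1 ring, spread from 0.793 for Mcm7 (0.658 to 0.957) to 2.77 for Mcm6 (2.35 to 3.27).

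Mcm6 (chr1:128331575-128359705) had 57.4 and 25.0 CPM in proliferating cells and 53.1 and 69.3 CPM in neurons. Proliferating 2 alone was low, 2.29-fold below proliferating 1 (1.95 to 2.71), and the log2 fold change was 0.57 with SE 0.54. Mcm3 followed with 30.7 and 23.3 CPM in proliferating cells and 34.2 and 41.7 CPM in neurons, without overlap (log2 0.49, SE 0.45). Mcm2 was alike in all 4 libraries, with 26.4 and 30.5 CPM in proliferating cells and 28.7 and 32.6 CPM in neurons (log2 0.11, SE 0.44), and Mcm7 had its lowest value, 24.1 CPM, in neurons 2. Mcm7 shares exon bases with Ap4m1 and Cops6 on the other strand and with the microRNA genes Mir25 and Mir93, and the sources used here do not say whether strand was used in counting. The same limit holds for Orc1, Orc2, Orc6, Cdc45, Gins2, Pole, Rfc2, Rfc4, Rfc5, Fen1, Lig1 and Tk1, which share exon bases with a gene on the other strand.

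All 6 genes of helicase activation were lowest in proliferating 2. Their median log2 fold change was 0.40 (0.01 with library size alone), 0.12 in pair 1 and 0.83 in pair 2. Mcm10, which helps to start the helicase (chr2:4990724-5012791), had 18.7 and 7.44 CPM in proliferating cells and 21.4 and 14.7 CPM in neurons. The groups overlapped, with a ratio of 1.15 (0.958 to 1.38) in pair 1 and 1.97 (1.44 to 2.74) in pair 2. Cdc45, the helicase cofactor, had 4.93 and 3.79 CPM in proliferating cells and 6.48 and 4.89 CPM in neurons (log2 0.38, SE 0.50). Of the 4 GINS genes, Gins2 had the largest value, from 2.30 and 1.90 CPM to 2.86 and 3.67 CPM (log2 0.63, SE 0.57). Gins2 shares 2758 exon bases with Gse1 on the other strand, which had 346 to 954 counts. The other 3 lay between 1.90 and 4.59 CPM in every library.

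The 4 genes of primase and polymerase alpha, which lay the first stretch of each new strand, had the widest gap between the proliferating replicates, a median of -1.13 on the log2 scale. Pola1, the catalytic subunit (chrX:93304766-93632387), had 38.0 CPM in proliferating 1 and 5.41 CPM in proliferating 2, against 45.3 and 19.4 CPM in neurons 1 and 2. The counts were 463, 40, 538 and 190 in that order. Proliferating 2 was thus 7.03-fold below proliferating 1 (5.08 to 9.96), and neurons 2 was 2.34-fold below neurons 1 (1.98 to 2.77). Within pairs neurons were higher, by 1.19-fold (1.05 to 1.35) and 3.58-fold (2.53 to 5.17). Its log2 fold change of 0.57 (SE 0.86) became 1.00 (SE 0.51) in the blocked fit (unadjusted p = 0.0765). With 327622 bases, Pola1 had the longest span of the 43 genes, and its transcript GC content of 41.5% was the second lowest after Rpa3.

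Prim1, the primase catalytic subunit (chr10:128015215-128030030), was higher in neurons in both pairs, with 7.81 and 4.20 CPM in proliferating cells and 13.0 and 7.54 CPM in neurons. Its ratio was 1.66 (1.28 to 2.17) and 1.80 (1.17 to 2.83), and the log2 fold change 0.76 with SE 0.55. Prim2, the partner subunit, had 11.2 and 11.4 CPM in the replicate 1 libraries and 4.33 and 8.16 CPM in the replicate 2 libraries of proliferating cells and neurons (log2 0.32, SE 0.59). Pola2, the polymerase's accessory subunit, had 7.72 and 5.01 CPM in proliferating cells and 7.91 and 8.67 CPM in neurons. For all 4 genes the log2 fold change was above 0, and the median was 0.47, or 0.02 with library size alone.

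Among the replicative polymerases, Pole and Pold2 behaved differently. Pole, the leading-strand polymerase (chr5:110286319-110337468), had 25.0, 22.5 and 22.5 CPM in proliferating 1, neurons 1 and neurons 2, and 10.3 CPM in proliferating 2. Pold2, an accessory subunit of the lagging-strand polymerase, had 10.9 and 13.8 CPM in proliferating cells and 12.4 and 19.9 CPM in neurons, so that both replicate 2 libraries exceeded their replicate 1 partners. Pole2 had 2.38 and 1.76 CPM in proliferating cells and 3.95 and 3.16 CPM in neurons, without overlap (log2 0.77, SE 0.57). Over the 5 genes the median was 0.35, -0.15 with library size alone and -0.15 in pair 1.

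The clamp gene Pcna, a common marker of S phase (chr2:132249286-132253180), had 9.28 and 6.90 CPM in proliferating cells and 11.4 and 8.56 CPM in neurons. Its ratio was alike in the pairs, 1.22 (0.946 to 1.58) and 1.24 (0.866 to 1.79), with a log2 fold change of 0.30 (SE 0.48). A processed copy with its own row, Pcna-ps2, had 15 to 42 counts, and how reads that match both were counted is not given in the sources used here. Rfc4, a small loader subunit, was higher in neurons in both pairs, from 7.23 and 5.28 CPM to 12.2 and 9.38 CPM (ratios 1.69 and 1.78, log2 0.78, SE 0.49). Rfc1, the large loader subunit, followed the replicate, with 27.6 and 31.4 CPM in the replicate 1 libraries and 7.44 and 13.5 CPM in the replicate 2 libraries of proliferating cells and neurons. Proliferating 2 was 3.71-fold below proliferating 1 (2.78 to 5.03). The 6 genes had a median of 0.25, and of -0.10 with library size alone.

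Rpa3, the smallest subunit of the single-strand binding protein RPA (chr6:8255936-8259141), had the lowest unadjusted p-value of the 43. It had 3.37 and 2.30 CPM in proliferating cells and 5.30 and 6.22 CPM in neurons, from 41, 17, 63 and 61 counts, without overlap. Neurons over proliferating cells gave a log2 value of 1.01 (SE 0.52), with a ratio of 1.57 (1.05 to 2.39) and 2.70 (1.56 to 4.94). The other RPA subunits did not share that size: Rpa1 had 19.4 and 19.4 CPM in proliferating cells and 14.6 and 21.8 CPM in neurons, and Rpa2 6.82 and 7.04 CPM against 7.65 and 7.75 CPM. Lig1, the ligase that seals Okazaki fragments, was lower in neurons in pair 1, 17.2 against 13.4 CPM, and higher in pair 2, 12.2 against 18.7 CPM. Fen1, the flap endonuclease, went the opposite way, with a ratio of 1.37 (1.05 to 1.79) and then 0.668 (0.468 to 0.952). The difference between the pairs for Lig1 and Fen1 was not tested. Over the 5 genes the median was 0.12, or -0.14 with library size alone.

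The 4 nucleotide supply genes had a median log2 fold change of 0.37, or -0.02 with library size alone. Rrm1, the large subunit of ribonucleotide reductase (chr7:102441695-102469771), had 31.7 and 23.3 CPM in proliferating cells and 31.3 and 37.5 CPM in neurons (log2 0.32, SE 0.45). Rrm2, the small subunit whose level peaks in S phase, had 9.28 and 8.66 CPM in proliferating cells and 10.4 and 5.40 CPM in neurons, so that neurons 2 was lowest and its pair ratio was 0.624 (0.425 to 0.912). Tyms, which makes thymidylate, followed the replicate, with 10.7 and 4.06 CPM in proliferating cells and 12.8 and 7.14 CPM in neurons. Tk1, the thymidine kinase of S phase, had 33, 7, 36 and 21 counts in proliferating 1 and 2 and neurons 1 and 2. Its log2 fold change of 0.47 (SE 0.71) was -0.06 without proliferating 2.

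E2f1, an activator E2F and itself an E2F target (chr2:154559400-154569892), was 1 of 6 members higher in proliferating 2 than in proliferating 1. It was also 1 of 9 members with a log2 fold change below 0. It had 8.13 and 13.9 CPM in proliferating cells and 8.50 and 9.38 CPM in neurons: proliferating 2 was the highest of the 4 libraries and the other 3 were alike. Its log2 fold change of -0.30 (SE 0.50) turned to 0.14 without proliferating 2. Splitting the genes with a RefSeq window by the E2F words gave like values for proliferating 2 over proliferating 1, a median of -0.45 for the 14 genes with a word and -0.43 for the 21 without. For neurons 2 over neurons 1 these medians had opposite signs, 0.25 and -0.38. They were 0.05 and 0.18 in pair 1 and 0.71 and 0.37 in pair 2, and no difference between genes with and without a word was tested.

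Levels of different genes can be compared only per length. The deposited RPKM divides by 1 length per gene, and its library total includes the 18S row, so genes were ordered within each library. The highest was Rrm1 (12.97) in proliferating 1, Mcm2 (6.43) in proliferating 2, Rfc4 (12.6) in neurons 1 and Rpa3 (6.60) in neurons 2, so the top of the order differed between libraries. Mcm2 was among the first 3 of the 43 in every library, at 12.8, 6.43, 10.7 and 6.55 RPKM in proliferating 1 and 2 and neurons 1 and 2, and Rfc4 was among the first 6. Pola2, Pold3 and Orc1 lay at ranks 39 to 43 in every library. The length behind the RPKM was not always near that of the longest transcript, however. In proliferating 1, Pola2 had 94 counts, a transcript of 2421 bases and 0.420 RPKM. Rfc5 had 70 counts, 2796 bases and 5.43 RPKM there. A low rank can thus reflect the length used and not a low level.

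The replicate ratios went with base composition in both groups, and with gene span more in proliferating cells. Across the 43 genes, the log2 ratio of proliferating 2 to 1 had a Spearman rho of 0.37 with transcript GC content and of -0.54 with the span of the gene; over all genes these were 0.54 and -0.25. The ratio of neurons 2 to 1 had a rho of 0.44 with GC content and of -0.18 with span across the 43, and of 0.33 and 0.04 over all genes. All points share the same libraries, so these are descriptions. In the 21 genes of lowest GC content (40.4% to 48.7%) proliferating 2 was 1.79-fold lower at the median, and in the 21 of highest (49.3% to 60.7%) 1.23-fold lower, medians of -0.84 and -0.30 on the log2 scale. For neurons 2 over 1 the same groups of genes had medians of -0.48 and 0.13. E2f1, at 58.3% GC, had the highest ratio of the 43. The GC trend of each library was then removed, over the 11597 tested genes with a GC value. For proliferating 2 over 1 the median log2 ratio of the 43 became -0.48, against -0.45 before. That of all genes became 0.05, against -0.04 before. The 43 thus lay 0.53 below all genes, against 0.41 before, and 33 of them were lower, against 37. In pair 2 the median of the 43 lay 0.61 above that of all genes, against 0.63 before. There, 33 of them were higher, against 37. For E2f1 the correction moved its log2 fold change from -0.30 to -0.02. What set proliferating 2 apart was not tested.

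**Figure D5:**
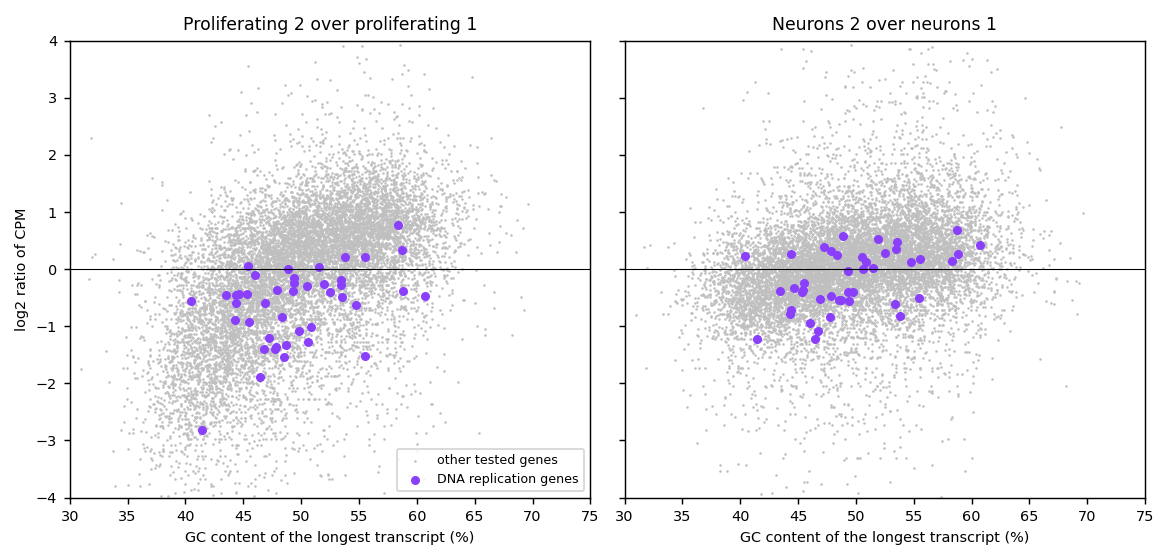
Log2 ratio of CPM between replicates (left proliferating, right neurons) against the GC content in percent of the longest transcript, for the 43 replication genes (purple) and the other tested genes (grey); 1378 and 1265 genes outside the axes or with no value are not drawn. In the proliferating panel Pola1 lies at 41.5% GC and -2.81 and E2f1 at 58.3% GC and 0.78; in the neuron panel the replication genes lie around 0, from -1.22 to 0.69.

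Other genes of the pathway, listed apart from the 43, showed the same contrast between libraries. Of 41 further replication genes 40 were tested, and 0 passed the edgeR test (0.0% of all tested genes). None (0 of 40) had an unadjusted p-value under 0.05, against 3.43% of all genes. Their median log2 fold change was 0.21 with 29 above 0, against 52.0% of all genes. Within pair 1 the median was 0.02, within pair 2 0.44, and proliferating 2 was lower than proliferating 1 for 35 of the 40, with a median of -0.85. They summed to 700.8 and 349.4 CPM in proliferating cells and to 790.1 and 551.9 CPM in neurons. The 7 origin firing genes, which turn a licensed origin into 2 forks, had a median of -1.32 between the proliferating replicates. Topbp1, a scaffold of that step, had 49.5 and 12.7 CPM in proliferating cells and 42.2 and 35.3 CPM in neurons. Dnmt1, the maintenance methyltransferase at forks, was an exception with 69.8 and 69.7 CPM in proliferating cells and 67.3 and 60.2 CPM in neurons.

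Markers of cells in cycle showed the same order of libraries. All 5 (Mki67, Bub1, Ccnb1, Cdk1 and Aurkb) were lowest in proliferating 2, with a sum of 132.0 and 25.0 CPM in proliferating cells and 163.0 and 74.8 CPM in neurons. Bub1, a spindle checkpoint kinase, had 132, 8, 171 and 78 counts in proliferating 1 and 2 and neurons 1 and 2. The median of the 5 between the proliferating replicates was -1.58, and -1.0 after the GC trend was removed. Among markers of other cells, 8 glial genes (3 tested) summed to 67.6 and 61.7 CPM in proliferating cells and to 20.9 and 2.14 CPM in neurons. Gfap had 181 and 89 counts in proliferating cells and 1 and 2 counts in neurons. Its log2 fold change was -6.47, with an edgeR adjusted p-value of 0.110, or 0.0158 with the replicate block. The test without a block thus did not call even this difference. In proliferating 1 and 2 and neurons 1 and 2, the glial gene Aqp4 had 356, 2, 31 and 5 counts. Fabp7, also glial, had 272, 362, 211 and 9. The 6 hair cell markers (2 tested) summed to 4.63 to 23.9 CPM, with Pou4f3 and Otof at 0 counts. Among them Atoh1 had 17, 18, 1 and 91 counts and Myo6 256, 121, 54 and 122, in the same order. The 6 fibroblast markers (1 tested) summed to 7.14 to 17.2 CPM, with Col1a2 and Dcn at 0 and Pdgfra at 119, 66, 200 and 70 counts. The part of such other cells in the levels of the replication genes was not tested.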

How the data were processed

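Raw counts per gene and RPKM values of 4 libraries, deposited by the authors, were used. The submitters' processing notes name HISAT2, SAMtools, featureCounts, DESeq2, deepTools 3.4.3 and mm10, without roles; annotation, strand setting and multiple matches are not given in the sources used here. The deposited RPKM equals the count divided by 1 length per gene and by the column total, 18S row included. Counts were tested in edgeR 4.0.16 (R 4.3.3) with TMM, filterByExpr (minimum count 10, total 15), glmQLFit and glmQLFTest, group as the single term, Benjamini-Hochberg over 12783 genes, threshold 0.05; the steps were tested on simulated data. The common biological coefficient of variation was 0.456. CPM use the TMM-scaled size; ratios between libraries carry exact (Clopper-Pearson) 95% intervals. The replicate numbers pair the libraries because both replicate 2 titles name a second set; what a set is is not stated, and deviations of same-numbered libraries correlated at r = 0.33. Given in full are, per role, the 2 genes of highest mean CPM and the 1 of largest log2 fold change; any of the 43 genes or listed genes could be named. Genes and lists were chosen with earlier results of these data known. Transcript GC and length come from GENCODE M21 (1 longest protein-coding transcript per gene), coordinates and start sites from RefSeq GRCm38.p6, the same assembly as mm10. Alternatives were RLE factors, library size alone, DESeq2 1.42.0, other filters, log2(RPKM + 1) and log2(RPKM + 0.1) in limma 3.58.1, the replicate block, and each library left out; added after the data were seen were a GC correction (with and without the block) and a mean count of at least 50.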

Additional observations from a re-analysis of the deposited data

How the results depend on the processing

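Of the 43 genes, 0 were called under every setting run. Over all genes, 0 were called in the test described, with 438 at an unadjusted p-value under 0.05. Higher in neurons were 41 without a gene filter (25859 genes tested), 11 by DESeq2 and 33 with the GC correction and replicate block together, and 1 to 37 with a library left out. Lower were 122 without a filter, 46 by DESeq2, 3 with the replicate block, 127 with GC correction and block, 3 with GC correction, 2 with library size alone, 1 with log2(RPKM + 1), 2 with log2(RPKM + 0.1), and 9 to 90 with a library left out; the cause was not tested. With the replicate block the median of the 43 genes was 0.38, the lowest adjusted p-value 0.850, and the call of no replication gene changed. Leaving out each library gave medians of 0.091 (proliferating 2) to 0.556 (proliferating 1). The lone library left in a group is then assumed to vary like the others. Without proliferating 1, 5 of the 43 (Pola1, Pole, Rfc1, Mcm10 and Mcm6) had an unadjusted edgeR p-value under 0.05 (11.6%, against 19.7% of all genes), with a lowest adjusted value of 0.0839. The log2 fold change changed sign for 13 of the 43 genes without proliferating 2, 18 with library size alone, 8 in each RPKM fit and 4 to 8 without another library. Of the 10 genes with the largest value in their role, Tk1 (-0.065) and E2f1 (0.14) did so, both without proliferating 2; with each library left out they ranged from -0.065 to 1.42 and from -0.67 to 0.14. Genes higher without overlap, 11 in the report, were 0 with library size alone (1.74% of all genes), 0 in RPKM (1.75%), 6 of 33 with a mean count of at least 50 (12.4%), and 14 (without proliferating 2, 28.9%) to 34 (without proliferating 1, 41.9%) with a library left out. Genes lower without overlap, 1 in the report, were 0 with library size alone (18.4% of all genes), in RPKM (18.4%) and after GC correction (17.3%), and 2 to 6 with a library left out (24.9% to 37.8%), fewer libraries being easier to separate. Depth limits the low genes most: the 95% interval of Gmnn in pair 2 ran from 0.900 to 11.7.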

Other observations

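The genes that govern E2F activity did not move as a block. Of 16 listed E2F and retinoblastoma pathway genes, 0 passed the edgeR test (0.0% of all tested genes). None (0 of 16) had an unadjusted p-value under 0.05, against 3.43% of all genes. The median log2 fold change was 0.21, with 11 above 0, against 52.0% of all genes. E2f2, an activator E2F, had 22 and 23 counts in proliferating 1 and 2 and 64 and 52 counts in neurons 1 and 2. Its log2 value was 1.13 (SE 0.55) for neurons over proliferating cells. Neurons were higher without overlap, as for 12.9% of all genes. Tfdp2, a dimer partner of E2F proteins, had 19.5 and 5.69 CPM in proliferating cells and 31.2 and 20.2 CPM in neurons. With the replicate block it was the 1 gene of the 16 with an unadjusted edgeR p-value under 0.05 (0.0279, adjusted 0.697), against 6.18% of all genes. Rbl1, a relative of the retinoblastoma protein, had 11.5 and 1.76 CPM in proliferating cells and 9.84 and 7.75 CPM in neurons, so proliferating 2 alone was low. Cdk2, the kinase that the inhibitor in the neuron medium targets, had 7.81 and 8.66 CPM in proliferating cells and 8.75 and 8.26 CPM in neurons (log2 0.05, SE 0.46).

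The further replication genes hold a case like Pola1. Top2a, the topoisomerase that untangles replicated DNA, had 2035 and 162 counts in proliferating 1 and 2 and 2599 and 1285 counts in neurons 1 and 2. Its ratio of neurons to proliferating cells was 1.31 in pair 1 and 5.97 in pair 2. In the fit without a block its log2 fold change was 0.88, with an SE of 0.85 that is nearly as large. With the replicate number as a block its log2 fold change was 1.47, with an unadjusted edgeR p-value of 0.0275 and an adjusted one of 0.69. Top2a was the 1 gene of the 40 tested under 0.05 in that blocked edgeR fit, against 6.18% of all genes. Atad5, which unloads the clamp, had 225, 18, 260 and 146 counts in the same order. Rrm2b, the ribonucleotide reductase subunit used outside S phase, went opposite ways in the pairs, with 55 and 16 counts in proliferating and neurons 1 and 8 and 34 in replicate 2; that difference was not tested.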
